A study of Caenorhabditis elegans with 5 samples.

Results

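The regions described here are the 947 binding peaks of ALR-1 on chromosome V of the nematode Caenorhabditis elegans, out of 6159 peaks in the genome. They are all the lines of the combined peak list that carry the chromosome name V, so position alone chose them, with their low density known from an earlier reading of the same lists. The protein belongs to the aristaless family of homeodomain factors, which bind DNA and control transcription, and in this worm it is known for its part in the development of sensory neurons, touch receptor neurons and motor neurons. The libraries were 3 of DNA immunoprecipitated with a goat polyclonal antibody against EGFP and 2 of input DNA from the same kind of extract. All 5 came from hermaphrodites of strain OP200 at the L2 larval stage, grown at 20 °C and fixed with 2% formaldehyde.

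Every library, input included, carried the mutation unc119(ed3) together with the transgene wgIs200. The transgene holds alr-1 with a TY1, EGFP and FLAG tag as well as unc119, so the tagged copy was an added one, introduced by biolistic bombardment, and 1 transgenic strain stood for all. No untagged strain is among the samples. Whole larvae were used, so a peak can come from any cell type with the tagged protein, and fewer such cells cannot be told apart from weaker binding per cell. In the titles, 2 of the immunoprecipitated libraries have the replicate number 1 and 1 has the number 2, and both input libraries have the number 1. The labels do not say whether these were separate cultures. The lists give no read counts, and depth is therefore unknown.

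Chromosomes of this worm have no single centromere. On the autosomes a gene-dense middle with little recombination lies between 2 arms that recombine more and hold more repeats and more young, fast-evolving genes. Chromosome V is the longest of the set, and its arms are known for large families of chemoreceptor genes. A peak list cannot show which of these features a site belongs to, and no peak was assigned to a gene because the gene annotation at hand is on another genome build than the WS190 coordinates of the peaks.

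The 947 peaks covered 460.7 kb, or 2.21% of the 20.9 Mb between the first and the last peak of any list on V. That stretch stands for the length of the chromosome throughout. V held 15.4% of the combined list, 15.7% of the replicate 1 list (256 of 1628 peaks) and 15.7% of the replicate 2 list (629 of 3994). Its density was 45.3 peaks per Mb in the combined list, against 65.1 on I to IV together, a ratio of 0.70 (exact 95% interval 0.65 to 0.75). The ratio was 0.73 in replicate 1 (12.3 against 16.8 peaks per Mb, interval 0.63 to 0.84) and 0.72 in replicate 2 (30.1 against 41.8, interval 0.66 to 0.79). In all 3 lists V had the fewest peaks per Mb of the 6 chromosomes. The other autosomes ran from 53.0 per Mb on IV to 82.8 on I in the combined list, and without I the ratio there was 0.76. The intervals cover counting error only, and no test is given, because the chromosome was picked with this low density known.

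Peaks were crowded in the middle of V. The first 30% of the stretch is called the left arm here, the middle 40% the centre and the last 30% the right arm, so the centre ran from 6275225 to the start of the right arm at 14631646. All positions are on chromosome V of the WS190 build, counted from 1. In the combined list the centre held 564 peaks, or 67.5 per Mb. The left arm held 225, or 35.9 per Mb, and the right arm 158, or 25.2 per Mb. The centre was thus 2.21-fold denser than the arms together (1.94 to 2.52, exact 95% interval; p = 1.04e-33 by a two-sided exact binomial test).

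The same contrast appeared in each replicate list on its own. Replicate 1 had 168 peaks in the centre against 50 in the left arm and 38 in the right arm, a density ratio of 2.86 (2.20 to 3.75, exact binomial p = 1.92e-16). Replicate 2 had 381, 145 and 103 peaks, with a ratio of 2.30 (1.96 to 2.72, exact binomial p = 3.48e-25). With Benjamini-Hochberg adjustment over the 3 lists the p-values were 3.11e-33 in the combined list, 1.92e-16 in replicate 1 and 5.23e-25 in replicate 2. All tests on peaks treat them as independent, although peaks cluster and the combined list may share reads with the other lists.

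The arms were not alike. The left arm had 1.42 times the peaks of the right arm in the combined list (interval 1.16 to 1.76, exact binomial p = 0.000724, adjusted over the 3 lists 0.00217). In replicate 2 the ratio was 1.41 (1.09 to 1.83, exact binomial p = 0.00909, adjusted 0.0136). In replicate 1, with 50 peaks on the left and 38 on the right, it was 1.32 (0.85 to 2.06) and did not pass the test (exact binomial p = 0.241). The direction was the same in the 3 lists, and the interval of replicate 1 holds both equal arms and the ratio seen in the other lists.

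**Figure D1:**
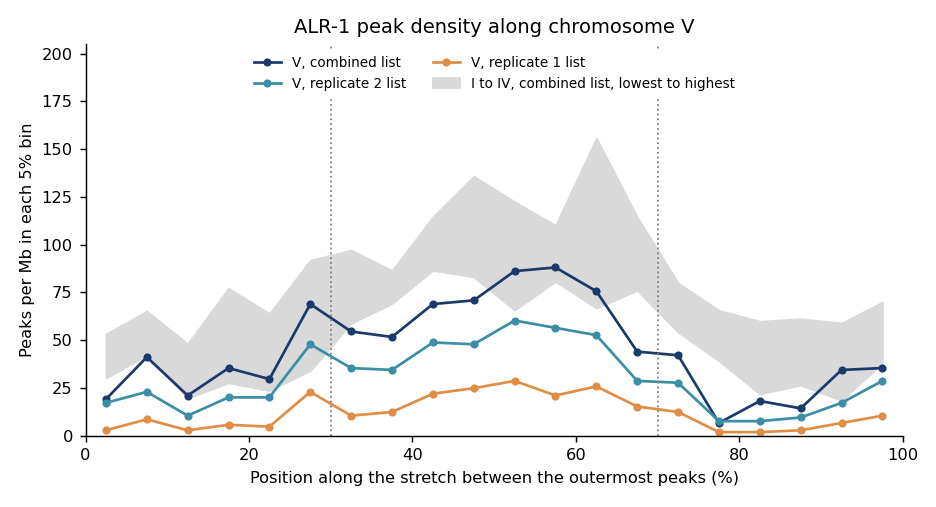
Peaks per Mb (vertical axis) in 20 bins of 5% along the stretch of V between its outermost peaks (horizontal axis, %), for the combined, replicate 2 and replicate 1 lists; the grey band runs from the lowest to the highest of I to IV in the combined list, and the dotted lines at 30% and 70% bound the centre. The combined list on V peaks at 88.1 per Mb in the bin from 55 to 60% and has its lowest value, 6.70 per Mb, in the bin from 75 to 80%.

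The peaks were uneven along V and also within its arms, as the plot of density along V shows. In windows of 1 Mb, the combined list reached 91 peaks between 10 and 11 Mb, with 33 in replicate 1 and 57 in replicate 2. The lowest count was 13, between 16 and 17 Mb, with 2 in replicate 1 and 12 in replicate 2. From 16 to 19 Mb no window exceeded 17 combined peaks, and the windows that follow held 31 and, in the incomplete last one, 36. The sparse stretch thus lay in the middle of the right arm, with 42.1 peaks per Mb in the arm's innermost bin (70 to 75% of the stretch) and 35.4 in its outermost (95 to 100%). On the left a step came near 5 Mb: the windows from 2 to 5 Mb held 22, 29 and 32 combined peaks, and the window from 5 to 6 Mb held 63. Further out, the window from 1 to 2 Mb held 42 and the outermost window 19. By share of the stretch, the bin from 75 to 80% had 7 combined peaks, or 6.70 per Mb, against 39.2 to 65.6 per Mb in the same bin of I to IV. Chromosome IV had a sparse stretch somewhat further out, with 21.9, 26.5 and 18.5 combined peaks per Mb in the 5% bins from 80 to 95%. In those bins V had 18.2, 14.4 and 34.5 per Mb. The bins compared here were singled out after their values were seen, and the differences were not tested.

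The crowding of the centre was somewhat stronger on V than on the other autosomes. On V the centre held 59.6% of combined peaks (Wilson 95% interval 56.4 to 62.6%), against 55.3% on I to IV (53.7 to 56.8%), an odds ratio of 1.19 (1.03 to 1.38, Fisher's exact test, two-sided, p = 0.0179, adjusted over the 3 lists 0.0269). In replicate 2 the shares were 60.6% on V and 55.1% on I to IV, with an odds ratio of 1.25 (1.04 to 1.50, Fisher's exact p = 0.0137, adjusted 0.0269). In replicate 1 they were 65.6% and 61.4%, with an odds ratio of 1.20 (0.89 to 1.62), which did not pass the test (Fisher's exact p = 0.221). Single autosomes came close to V: II had 57.9% in the combined list, and I had 64.1% in replicate 1. Among the stronger 50% of the combined list, ranked by the authors' q-value, the odds ratio was 1.29 and the adjusted p by Fisher's exact test 0.0666. A single chromosome stands on the V side of this comparison.

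**Figure D2:**
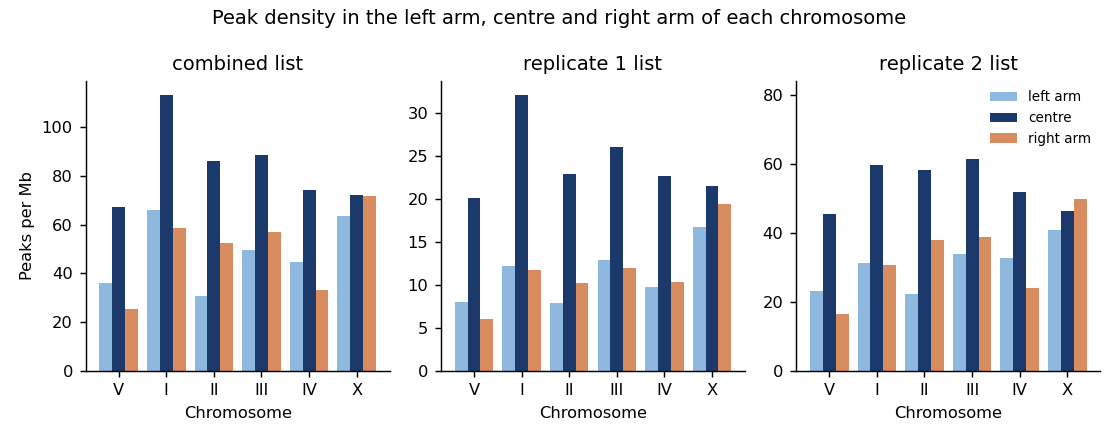
Peaks per Mb (vertical axis, scaled separately in each panel) in the left arm, centre and right arm of each chromosome (horizontal axis), in the combined, replicate 1 and replicate 2 lists; bars are counts over length, with no replicate error. On V the centre stands at 67.5 per Mb in the combined list, with 35.9 in the left arm and 25.2 in the right arm, which is the lowest bar of that panel.

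The right arm of V was the least dense of all arms and centres of the 6 chromosomes in each list, at 25.2 peaks per Mb in the combined list, 6.06 in replicate 1 and 16.4 in replicate 2. Among left arms, that of V had 35.9, 7.98 and 23.1 per Mb in the combined, replicate 1 and replicate 2 lists, slightly above that of II in each, at 30.6, 7.87 and 22.3. The centre of V, at 67.5 per Mb, was below the centres of the other autosomes, at 74.2 to 113.4 per Mb. These ranks over parts are descriptions and were not tested.

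Peaks on V were mostly narrow, and width differed little between its parts. The median was 378 bp in the combined list, with 25% of peaks at or below 270 bp and 25% at or above 551 bp. Medians on the other chromosomes ran from 359 to 383 bp. In the left arm the median was 406 bp, in the centre 371 bp and in the right arm 361.5 bp. The replicate lists had medians of 382.5 bp and 383 bp on V.

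Long peaks were few, and their share of the covered sequence was larger than their share of the members. The 15 peaks over 2000 bp were 1.58% of the members and 9.95% of the covered length, and 6 of them lay in the left arm, 8 in the centre and 1 in the right arm. Both replicate lists overlapped 6 of the 15, and neither overlapped 2, beside 19.7% and 31.4% of all members. These counts are small and were not tested. The 5 widest were spread over the chromosome. The peak from 14684686 to 14689157 measured 4472 bp and had a strength of 12.6, where strength is −log10 of the authors' q-value, so that a higher value is a smaller q. Replicate 1 had 20.6 there, its second highest value on V, and replicate 2 had 7.40. The peak from 723940 to 728367 measured 4428 bp and had 5.30, with 3.62 in replicate 1 and no peak in replicate 2. Next came the peaks from 6222452 to 6226257 (3806 bp, strength 12.9), from 5843361 to 5847015 (3655 bp, 5.09) and from 13787301 to 13790898 (3598 bp, 7.26). Width and strength were thus not ranked alike, with the peaks at 14684686 and 6222452 ranked 64 and 55 by strength on V and the other 3 at 187 or lower.

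At the other end, 23 members were shorter than 50 bp, the shortest a single base. Neither replicate list overlapped 20 of these 23, against 31.4% of all members. None was overlapped by both lists, which by 3 counts of 23 allows up to 13.0%, against 19.7% of all members. The part of width and of strength in this was not tested. Their median strength was 2.75, against 3.49 for the 641 peaks of 50 to 500 bp and 5.07 for the 268 peaks over 500 and up to 2000 bp.

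Spacing was wider on V than on the other chromosomes. The median distance to the next combined peak was 9895 bp on V, against 5602 bp on I, 6885 bp on X and 7322.5 to 8745 bp on II to IV. Distances on V ran from 200 bp to 276.0 kb. The lowest 25% were at most 2268 bp and the highest 25% at least 27395 bp. In the centre the median was 8.02 kb, in the left arm 13.1 kb and in the right arm 24.2 kb. Close neighbours were about as common as elsewhere: 12.2% of distances on V were under 1 kb, against 12.7 to 15.5% on the other chromosomes. The curves of spacing parted at longer distances. Wide spacing goes with the low density known when V was picked, and these differences were not tested.

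**Figure D3:**
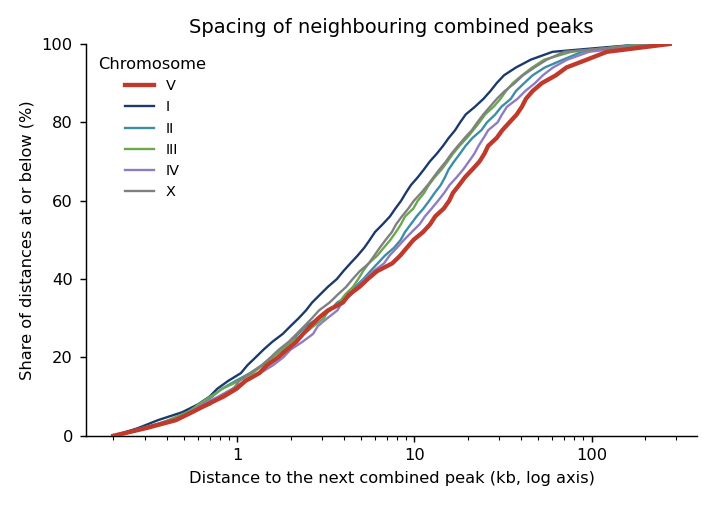
Share of distances between neighbouring combined peaks at or below a given size (vertical axis, %) against that size (horizontal axis, kb, log scale), 1 curve per chromosome. The curve of V (thick, red) lies with the others below 1 kb and to the right of them at long distances, with a median of 9895 bp and a longest distance of 276.0 kb.

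Peaks less than 1 kb apart formed 15 runs of 3 or more peaks on V, with 55 peaks in them, and 742 peaks (78.4%) stood alone. Of the 15 runs, 14 lay in the centre and 1, from 15069832 to 15073134, in the right arm. The largest held 5 peaks each. They ran from 9075837 to 9083104 (strongest peak 4.86), from 10174449 to 10178593 (24.0) and from 12548720 to 12556395 (32.6). The run at 9075837 had no strong member, its 5 peaks having 3.56 to 4.86. That at 10174449 had 1 strong peak and 4 of 2.15 to 3.52 beside it, and that at 12548720 had a second strong peak of 13.98.

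Dense windows lay near the middle. Of 209 fixed windows of 100 kb on V, 18 held 10 or more combined peaks, and these 18 had 217 peaks, or 22.9% of the members. By part, 14 were in the centre, 3 in the left arm and 1 in the right arm. The median window held 4 peaks. The share of members in such windows was lower than on the other chromosomes, where it ran from 31.6% on IV to 56.9% on I. With a fixed cut of 10 peaks, a low share goes with the low density known when V was picked, and the difference was not tested.

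The window from 10800001 to 10900000 was the densest on V, with 21 combined, 5 replicate 1 and 13 replicate 2 peaks. Its strongest peak, from 10832813 to 10833954, had 29.95, and the median of its 21 peaks was 4.25. Both replicate lists overlapped 5 of the 21 and neither overlapped 8, near the shares over all members, 19.7% and 31.4%. It was followed by the window from 8400001 to 8500000, with 17 combined, 8 replicate 1 and 10 replicate 2 peaks. The windows from 11900001 to 12000000 and from 12500001 to 12600000 held 14 each. They differed in strength: the window at 11900001 had a median strength of 2.93 and a maximum of 9.76, and that at 12500001 a median of 5.60 and a maximum of 32.6. The window from 5800001 to 5900000 held 12, level with 3 other windows. The window with the most peaks was thus not the one with the highest median strength.

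Empty stretches lay mainly in the arms. Of the 209 windows, 17 (8.13%) held no combined peak, 6 of 63 in the left arm, 2 of 83 in the centre and 9 of 63 in the right arm. Of these 17, 16 held no peak in any of the 3 lists. On the other chromosomes from 1.32% of windows on I to 7 of 175 on IV were empty. The 30 distances over 100 kb on V added up to 4529.8 kb, or 21.7% of the stretch, against 5.23 to 14.8% on the others. Of these 30, 8 lay in the left arm, 6 in the centre and 16 in the right arm, and 27 had no peak of either replicate list with its midpoint inside. Only 9 of 256 replicate 1 peaks and 35 of 629 replicate 2 peaks on V overlapped no member. Windows and stretches without a member are thus nearly bound to lack replicate peaks, which is no separate evidence of emptiness. The differences from other chromosomes go with the low density known when V was picked, and they were not tested.

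The longest stretch without a combined peak was 276.0 kb, from 2324573 to 2600584. It was bounded by a peak of 3.59 and a peak of 7.22, and no replicate peak lay within. The second, 233.8 kb from 15766580 to 16000423, began just after a peak of 17.0 and also held no replicate peak. Then came 230.6 kb from 1546041 to 1776622, 229.2 kb from 17009670 to 17238858 and 219.2 kb from 2875796 to 3094982. All 3 were without a replicate peak, as nearly follows from the lack of members there. The stretches from 1546041, 2324573 and 2875796 all lay in the left arm, with combined peaks between them.

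The replicate lists had longer gaps, some of them over the same stretches. Replicate 2 had no peak for 634.4 kb from 2677822 to 3312250, and replicate 1 none for 943.6 kb from 2673324 to 3616890. Inside the replicate 2 gap lay the midpoints of 6 combined peaks with strengths of 2.16 to 2.89, and neither replicate list overlapped any of them. The replicate 1 gap began right after a strong site, from 2672303 to 2673323, with 18.5 in the combined list, 5.58 in replicate 1 and 18.3 in replicate 2. On the right arm, replicate 1 had no peak for 873.6 kb from 16840843 to 17714395, where 11 combined peaks had 2.19 to 4.71.

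Members were then marked by the replicate lists that overlapped them by at least 1 bp. Replicate 1 peaks overlapped 244 of the 947 members (25.8%), against 25.7% of all combined peaks, and replicate 2 peaks overlapped 593 (62.6%), against 61.1% of all. Both lists overlapped 187 members, which is 19.7% (Wilson 95% interval 17.3 to 22.4%), against 20.0% of all combined peaks. Replicate 2 alone overlapped 406 (42.9%), against 41.1% of all. Replicate 1 alone overlapped 57 (6.02%), against 5.67%. Neither list overlapped 297 (31.4%, 28.5 to 34.4%), against 33.2%. The shares on V were all near those of the whole list.

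Seen from the replicate lists, 187 of the 256 replicate 1 peaks on V had a replicate 2 partner (73.0%, 67.3 to 78.1%), against 76.1% of all replicate 1 peaks. Of the 629 replicate 2 peaks, 189 had a replicate 1 partner (30.05%, 26.6 to 33.7%), against 31.0% of all. None of 4 comparisons of V with the other 5 chromosomes passed Fisher's exact test, two-sided, adjusted over the 4. The odds ratio was 0.98 (interval 0.82 to 1.17, adjusted p = 0.860) for members in both lists and 0.90 (0.78 to 1.05, adjusted p = 0.462) for members in neither, both by Fisher's exact test. It was 0.82 (0.60 to 1.13, adjusted p = 0.462) for partnered replicate 1 peaks and 0.95 (0.78 to 1.14, adjusted p = 0.765) for partnered replicate 2 peaks, by the same exact test. These intervals allow a modest difference in either direction. Among the stronger 50% of each list, the share in neither was lower on V, with an odds ratio of 0.74 (adjusted p = 0.0286, Fisher's exact test).

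Recurrence followed the authors' strength. Among the 190 strongest members, with strengths of 7.23 to 45.9, both lists overlapped 143 (75.3%) and neither overlapped 0, which by 3 counts of 190 allows up to 1.58%. Among the 190 weakest, with strengths of 2.00 to 2.53, both lists overlapped 0 of 190 and neither overlapped 142 (74.7%). In the 3 groups of 189 between them, the share in both was 20.1%, 2.65% and 0.53% in falling order of strength. Members in both lists had a median strength of 9.71, those in replicate 2 alone 4.33, those in replicate 1 alone 3.98 and those in neither 2.55. The combined list may rest on the same reads as the replicate lists, so this order is given as a description, with no test. Widths followed the same order at the ends, with medians of 459 bp in both and 275 bp in neither.

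Along the chromosome, recurrence in both lists was more common in the centre. Both lists overlapped 126 of 564 members in the centre (22.3%, 19.1 to 26.0%), against 61 of 383 in the arms (15.9%, 12.6 to 19.9%), an odds ratio of 1.52 (1.07 to 2.17, Fisher's exact test, two-sided, p = 0.0159, adjusted over 2 shares 0.0317). The share in neither list was 30.3% in the centre and 32.9% in the arms, with an odds ratio of 0.89 (0.67 to 1.19, Fisher's exact p = 0.433). Median strength was 4.03 in the centre, 3.63 in the left arm and 3.39 in the right arm, and the part of strength in the difference in recurrence was not tested. With the left arm, centre and right arm made equal in length the odds ratio for both lists was 1.32 and did not pass (adjusted p = 0.204, Fisher's exact test). With a centre of 50% and arms of 25% each it was 2.17 (adjusted p = 0.000258, Fisher's exact test). Among the stronger 50% of each list it was 1.43 (adjusted p = 0.424, Fisher's exact test).

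**Figure D4:**
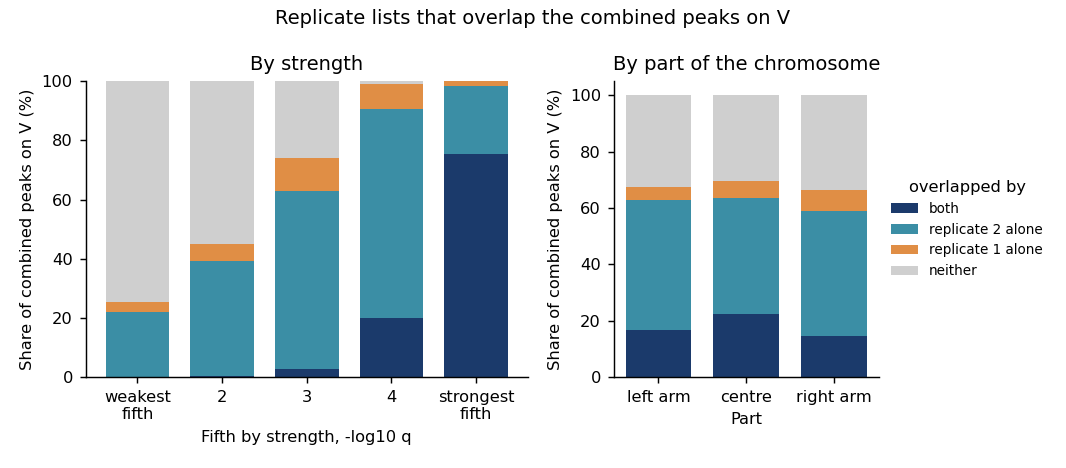
Share of combined peaks on V (vertical axes, %) that were overlapped by both replicate lists, by 1 list alone or by neither, in 5 equal groups by strength (left panel, weakest to strongest, 189 or 190 peaks each) and by part of the chromosome (right panel, 225, 564 and 158 peaks). Overlap by both lists makes up 75.3% of the strongest group and 0 of the weakest, and 22.3% of the centre.

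The strongest members that both replicate lists overlapped were mostly in the centre, as were shared members in general (126 of 187). Of the 10 strongest, 9 lay there and 1 in the right arm, and the difference from all shared members was not tested. The median strength of shared members was 9.53 in the centre, 9.34 in the left arm and 10.4 in the right arm. The first, from 12551607 to 12553816, had 32.6 in the combined list, 15.3 in replicate 1 and 10.8 in the stronger of 2 replicate 2 peaks, and ranked 22 in the genome. It belongs to the run of 5 from 12548720. The second, from 10832813 to 10833954, had 29.95, with 10.2 in replicate 1 and 18.2 in replicate 2, and lies in the densest window. The third, from 12577950 to 12578846, had 25.1, with 13.1 and 9.52. Replicate 1 had the higher value at 12551607 and 12577950, and replicate 2 at the other 8 of the 10.

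A compact group of 3 strong peaks lay between 10271111 and 10275998. The peak from 10275530 to 10275998 had 24.9, that from 10273545 to 10274540 had 24.2, and that from 10271111 to 10271773 had 20.5. Their replicate 1 values were close to each other, at 6.58, 6.56 and 6.23, and their replicate 2 values were 17.3, 15.4 and 12.3. The first and second of them are among the 10 strongest shared members. The remaining ones ran from 8767127 to 8767804 (24.7), from 15070920 to 15072130 (24.3), from 10174449 to 10175162 (24.0), from 13081029 to 13081806 (23.6) and from 13347064 to 13347614 (22.7). The peak at 15070920 was the strongest member in the right arm and showed the widest replicate difference of the 10, with 2.86 in replicate 1 and 22.8 in replicate 2, where it was the strongest peak on V. The last member of the chromosome, from 20874634 to 20875126, had 16.7 and was in both lists, while the first, from 7910 to 9664, had 5.41 and was in replicate 2 alone.

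The strongest member of all was seen in replicate 1 alone. The peak from 1804044 to 1806229 in the left arm had 45.9, ranked 6 in the genome, and measured 2186 bp. Replicate 1 had 56.8 there, its second highest value in the genome, with no replicate 2 peak closer than 26927 bp. Without it, the strongest member in the left arm was the peak from 2672303, at 18.5. The strongest replicate 2 peak on V without a replicate 1 partner, from 9561645 to 9562243, had 16.2 and lay 1221 bp from the nearest replicate 1 peak. The strongest member that neither list overlapped, from 5959094 to 5959480, had 4.92. Of the replicate peaks on V, 9 of replicate 1 (3.52%) and 35 of replicate 2 (5.56%) overlapped no member. The same shares over all chromosomes are not given here, so these counts cannot be called particular to V.

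Strong peaks on V were somewhat below its share of the combined list, and near or above its share of the replicate lists. Of the 100 strongest peaks in the genome, V had 11 in the combined list, 18 in replicate 1 and 14 in replicate 2, beside its 15.4, 15.7 and 15.7% of those lists. The median strength on V was 3.80 in the combined list, the lowest of the 6 chromosomes, where the others had 3.85 to 4.57. In replicate 1 it was 2.92 (others 2.92 to 3.01) and in replicate 2 it was 3.79 (others 3.51 to 3.88). These ranks and medians were not tested.

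Where the replicate lists had 1 peak each at a place, the peaks lay nearly on top of each other. In 185 such pairs on V the midpoints were a median of 33 bp apart, and 152 pairs (82.2%) were within 100 bp. The widest separation was 1308.5 bp. The median strength was 3.03 in replicate 1 and 5.83 in replicate 2, and replicate 2 was higher in 157 pairs (84.9%). Across the 185 pairs the strengths had a Spearman's rho of 0.41 and a Pearson's r of 0.33, given as a description. Without the 2 pairs farthest from the median of replicate 1, at 20.6 and 13.1, these were 0.41 and 0.39. The pairs share their libraries, every value passed the same limit on q, and q depends on depth, so the difference is one between the lists, and no change in binding was measured.

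**Figure D5:**
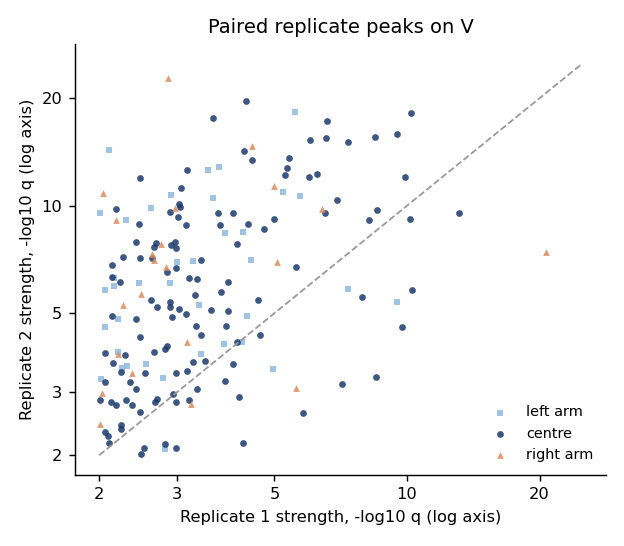
Strength in replicate 2 (vertical axis) against strength in replicate 1 (horizontal axis) of the 185 paired peaks on V, both as −log10 of the authors' q-value on log axes, by part of the chromosome; the dashed line marks equal values. Most points, 157 of 185, lie above the line, and the point farthest to the right is the 4472 bp peak of the right arm, at 20.6 and 7.40.

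Most peaks without a partner lay over 1 kb from the other list, and in replicate 2, but not in replicate 1, most lay over 10 kb from it. The 69 unpartnered replicate 1 peaks on V were a median of 7622 bp from the nearest replicate 2 peak. Of these, 13 were within 1 kb and 31 over 10 kb away. The 440 unpartnered replicate 2 peaks were a median of 23965.5 bp from the nearest replicate 1 peak, with 24 within 1 kb and 311 over 10 kb away. Replicate 2 has more peaks on V (629) than replicate 1 (256), and the part of list length in these distances was not tested. Unpartnered peaks were the weaker ones, with a median of 2.63 against 3.03 for partnered peaks in replicate 1, and 3.34 against 5.83 in replicate 2.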

How the data were processed

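The authors deposited 3 peak lists. WormBase WS190 is the genome build per the file headers, and PeakSeq is named as the source of each line. The value of each peak is the q-value the authors' caller gave it, deposited in each line, and all were below 0.01. As for the caller's version, the aligner, the input behind each list and the way of combining replicates, none is given in the sources used here, and a q-value depends on depth as well as enrichment. The members, lists of named peaks and tests were chosen with earlier results of these data known. Peaks were placed by their midpoint, in windows that start at position 1. Named peaks were the 10 strongest shared members, the strongest unpartnered ones, the strongest per part and in neither list, the 5 widest, the first and last, the 5 longest empty stretches and the 5 densest windows. Peaks named besides these were chosen after their values were seen. Exact binomial and Fisher's exact tests (two-sided) were tested on simulated independent counts, and p-values were adjusted by Benjamini-Hochberg. Such counts do not cluster as the peaks do, so the simulation does not show that the p-values hold for clustered peaks. Alternatives were other divisions, the stronger 50%, peaks within 1 kb merged, stricter overlap, equal list lengths, other windows, each replicate list alone and no chromosome I. Neighbour genes were not analysed here. Python 3.11.15, numpy 2.4.6, pandas 2.3.3, scipy 1.17.1 and matplotlib 3.10.9 were used. Intervals cover counting error only.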

Additional observations from a re-analysis of the deposited data

How the results depend on the processing

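The density of the centre over the arms ran from 2.06 to 2.86 and the left over the right arm from 1.32 to 1.57 under the alternatives run. In replicate 1 alone the arm difference (1.32) and the odds ratio of the centre share on V over the other autosomes (1.20) no longer passed; with each list left out that odds ratio ran from 1.20 to 1.25, the density ratio of left over right arm from 1.32 to 1.41, and the number of peaks on V from 256 to 629. In the stronger 50% of each list the centre odds ratio was 1.29 and did not pass, and the density ratio of V to I to IV was 0.63. V held 442 peaks there, with a median width of 450.5 bp, 24.4% of windows were empty and the longest stretch was 638.9 kb. In the full combined list the density ratio was 0.76 without chromosome I. The median width of that list was 390 bp with peaks within 1 kb merged. Empty windows were 1.90% at 200 kb and 15.3 to 44.0% in single replicate lists, where the longest stretch was 634.4 to 943.6 kb. With replicate lists of equal length, 13.0% of members were in both and 60.2% in neither, with 48.0% of replicate 1 and 47.9% of replicate 2 peaks partnered. The stronger 50% gave 26.9% in neither and 26.6% of replicate 2 partnered, and reciprocal overlap of 50% gave 66.4% of replicate 1 partnered. Against other chromosomes the odds ratio of members in both turned to 1.00 under reciprocal overlap and to 1.08 for the stronger 50%, that of members in neither 0.74 in the stronger 50% and 1.06 without chromosome I. The centre odds ratio of members in both was 1.43 in the stronger 50% and 1.32 with arms and centre of equal length, neither passing, while it was 2.17 with a centre of 50%, 1.58 with reciprocal overlap and 1.53 with midpoints within 200 bp, all passing. Of the 10 strongest shared members, 9 stayed shared with reciprocal overlap, 8 with midpoints within 200 bp and 9 in the stronger 50%. The cause of these shifts was not tested, beyond the fewer peaks that shorter lists hold by construction. No paired analysis was possible because the lists hold no value per library. Without read counts, an absent peak is not absent binding.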
